A study of Mus musculus with 3 samples.

Results

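The B-class ephrins and Eph receptors were examined in endothelial cells of the adult mouse kidney cortex. The members are all Efnb and Ephb genes, 8 in number, each read from its brightest probeset by mean among those that the array annotation gives to that gene alone. Of the 8 genes, 7 had such a probeset, out of 19938 genes measured in this way. Ephb2 had none and was not analysed here. The 3 samples form 1 group, called replicates 1, 2 and 3. Each came from 1 kidney of an adult (Theiler stage 28) mouse of sex unknown and of a mixed, largely CD-1 background that carried the transgene Tg(TIE2GFP)287Sato, in which the promoter of the angiopoietin receptor gene Tek (Tie2) drives GFP. The medulla was removed, glomeruli were held back on a 40 µm mesh, and GFP positive cells were sorted by FACS. The RNA went through 1 round of amplification before it was put on Affymetrix Mouse Gene 1.0 ST arrays. The labels do not say whether the 3 kidneys came from different mice, while the study speaks of independent biological samples.

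Ephrins are cell surface ligands of the Eph receptor tyrosine kinases. The B-class ephrins cross the membrane and carry a cytoplasmic tail, so that contact between cells sends a forward signal through the receptor and a reverse signal through the ligand. In blood vessels ephrin-B2 marks arterial and EphB4 marks venous endothelium, and both are needed for the separation of arteries from veins in the embryo. EphB1, EphB2 and EphB3 are best known from axon guidance and from the sorting of epithelial cells, and EphB6 lacks kinase activity.

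Values are log2 signals, and a signal of 100 is 6.64 on this scale. The limit was taken from the study, whose screens across sample types required a raw level of at least 100 in 3 samples. The study's raw scale may differ from that of the deposited values. As the samples form a single group, no contrast between groups exists, and each mean was tested against 100 with limma (one-sided, in each direction, adjusted over all probesets, threshold 0.05). A gene is called above or below 100 only by this test. Means are given ± SD over the 3 samples (n = 3). Signals of different genes come from different probes, so they are given against the limit and not ranked against each other.

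In sorted cortical endothelium Efnb2 and Ephb4 were above 100, 4 members (Efnb3, Ephb1, Ephb3 and Ephb6) were below it, and Efnb1 was neither. The 2 of 7 above compare with 22.9% of all genes, and the 4 below with 65.0%. The median log2 signal of the 7 members was 5.61, beside 5.88 over all genes. In sorted cells of this kind, fewer cells that use a gene and less RNA per cell cannot be told apart.

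**Figure D1:**
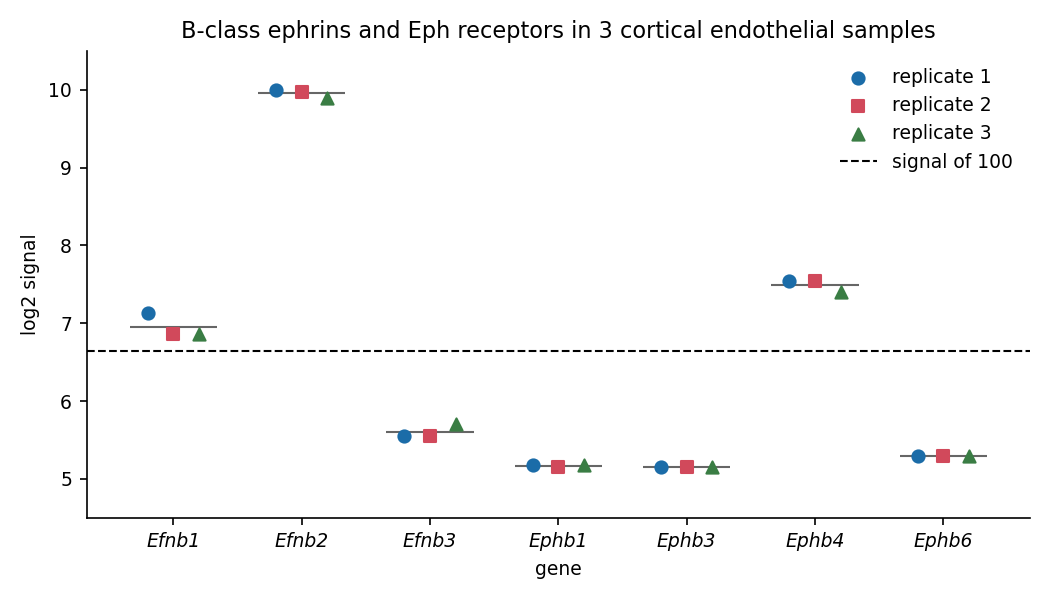
Log2 signal of the 7 measured B-class genes (horizontal axis) in replicates 1, 2 and 3 (circle, square, triangle), with a grey line at each mean and a dashed line at a signal of 100. Efnb2 lies between 9.89 and 10.00, Ephb4 between 7.41 and 7.54 and Efnb1 between 6.86 and 7.13, all over the line, while the 4 other genes lie under it in every sample.

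The promoters of the 2 genes above 100 are shown, since these are the members that the test called above the limit. Each runs from 250 bases before to 50 bases after the RefSeq start of the gene, 5′ to 3′ on the gene's strand. The Efnb2 window is chr8:8661193-8661492 on the minus strand and the Ephb4 window is chr5:137349859-137350158 on the plus strand, both of build GRCm38.p6. Capitals mark GGGCGG and its reverse CCGCCC, the core of the site bound by Sp factors.
Efnb2: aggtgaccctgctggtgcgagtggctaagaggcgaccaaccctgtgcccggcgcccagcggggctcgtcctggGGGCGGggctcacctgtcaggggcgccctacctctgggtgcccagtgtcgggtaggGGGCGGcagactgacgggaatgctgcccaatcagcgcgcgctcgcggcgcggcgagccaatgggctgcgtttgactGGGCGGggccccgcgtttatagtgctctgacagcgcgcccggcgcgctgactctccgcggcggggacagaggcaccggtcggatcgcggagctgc
Ephb4: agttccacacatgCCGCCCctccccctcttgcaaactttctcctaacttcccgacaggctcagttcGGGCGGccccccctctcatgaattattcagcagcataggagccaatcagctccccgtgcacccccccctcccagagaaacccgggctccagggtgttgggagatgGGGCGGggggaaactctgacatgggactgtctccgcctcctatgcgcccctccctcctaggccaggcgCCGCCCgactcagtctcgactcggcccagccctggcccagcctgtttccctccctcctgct
The Efnb2 window held 3 and the Ephb4 window 4 of these matches, and 35.7% of all 32851 RefSeq promoter windows held at least 1. Among the members below 100 that had a window, Ephb6 held 5, Ephb3 held 2 and Ephb1 held 0. Efnb1, which was neither above nor below, held 0. The matches thus did not set the members above 100 apart. Neither window held CCGGAA, a core of ETS sites, or TGGGAA, the core bound by the Notch effector RBPJ, on either strand. These cores were found in 14.9% and 25.6% of all windows. Among the other measured members with a window, Ephb6 held 1 match to CCGGAA and Efnb1 held 2 to TGGGAA. The share of G and C was 72.3% for Efnb2 and 64.7% for Ephb4, beside a median of 52.7% over all windows. For Ephb6, Ephb3, Ephb1 and Efnb1 it was 76.3%, 66.7%, 55.7% and 59.7%. A match of letters is a description only, and no binding was measured in these samples. The motifs were chosen after the sequences had been seen.

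Among the ligands, Efnb2 was the one above 100. Efnb2 encodes ephrin-B2, the transmembrane ligand of EphB4. Replicates 1, 2 and 3 read 10.00, 9.97 and 9.89 on the log2 scale, which are signals of 1025, 999.8 and 948.4. The 3 values lay within 0.11 of each other on the log2 scale, and all were far over the limit. The mean of 9.95 ± 0.06 exceeded the log2 of 100 by 3.31 (95% interval 3.19 to 3.43; limma adjusted p = 0.000173), a signal 9.91 times the limit.

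Efnb1 encodes ephrin-B1, a ligand of several EphB receptors that is known for its X-linked role in craniofacial development. Replicate 1 read 7.13 on the log2 scale, and replicates 2 and 3 both read 6.86. All 3 samples were over 100, with replicate 1 the highest, but the mean was close to the limit. The mean of 6.95 ± 0.16 exceeded the log2 of 100 by 0.31 (95% interval -0.01 to 0.63), and the gene was not called above (limma adjusted p = 0.118). Without replicate 1, from a pair of equal values, the adjusted p was 0.000863, and after quantile normalization it was 0.0483.

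Efnb3 encodes ephrin-B3, the midline ligand that keeps corticospinal axons from crossing back. Replicates 1 and 2 read 5.56 on the log2 scale and replicate 3 read 5.70, so that no sample reached a signal of 100. The mean of 5.61 ± 0.08 was a signal of 48.7 and was below 100 (difference -1.04, 95% interval -1.21 to -0.87; limma adjusted p = 0.000955). With a limit of 50 in place of 100, Efnb3 was neither above nor below it (adjusted p = 0.506 for a mean below).

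Among the receptors, Ephb4 was the one above 100. Ephb4 encodes the receptor of venous endothelium that prefers ephrin-B2 as its ligand. On the log2 scale replicates 1 and 2 read 7.54 and replicate 3 read 7.41, which are signals of 185.8, 185.8 and 169.7. Every sample was over the limit of 100 and under a signal of 200. The mean of 7.49 ± 0.08 exceeded the log2 of 100 by 0.85 (95% interval 0.70 to 1.00; limma adjusted p = 0.00416), a signal 1.80 times the limit. The adjusted p was 0.0734 without replicate 1 and 0.0718 without replicate 2, and against a limit of 200 Ephb4 was below (difference -0.15; adjusted p = 0.0348).

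Ephb1, Ephb3 and Ephb6 were below 100 in the same cells. Ephb1, a receptor of retinal and hippocampal neurons, had log2 signals of 5.18, 5.15 and 5.18, a mean of 5.17 ± 0.02 (limma adjusted p = 1.71e-05). This probeset rests on a cDNA record without a RefSeq transcript. The other probeset of Ephb1, which carries the RefSeq transcripts, had 4.81 in each sample and was also below (limma adjusted p = 3.54e-10). Both probesets of the gene were thus on the same side of the limit.

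Ephb3, a receptor that positions epithelial cells in the intestinal crypt, stood at 5.16 in each sample on the log2 scale, a signal of 35.7. Ephb6, the receptor without kinase activity, had 5.30 in each, a signal of 39.4. For both genes the 3 values did not differ in any of 5 decimals, so the SD was 0 and the adjusted p of 4.59e-10 and 6.11e-10 from limma rested on no measured spread. When such probesets took on the spread of other probesets with a like mean, both remained below, with an adjusted p of 0.0213 for Ephb3 and 0.0233 for Ephb6. The 95% interval of the difference from the limit was then -2.52 to -0.45 for Ephb3 and -2.32 to -0.36 for Ephb6. With that spread 16.5% of all genes were above and 52.9% below, and the members numbered 2 above and 4 below as before. Only probesets with 3 equal values were given another spread. The count therefore does not test the members that held a pair of equal values (Efnb1, Efnb3, Ephb1 and Ephb4).

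**Figure D2:**
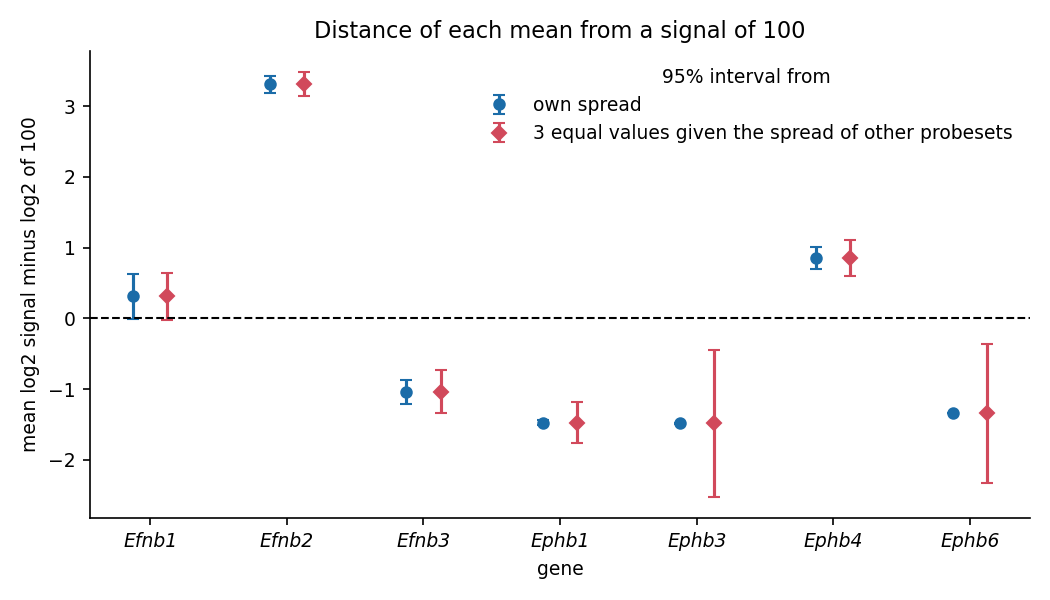
Mean log2 signal minus the log2 of 100 for the 7 measured B-class genes, with 95% intervals from limma. Circles use the spread of each probeset, and diamonds come from the fit in which probesets with 3 equal values take the spread of others of like mean. The intervals of Efnb2 and Ephb4 lie over 0, that of Efnb1 spans it, and those of Ephb3 and Ephb6 widen from almost nothing to more than 1 on the log2 scale.

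Equal values were frequent across the whole array. Of all genes, 51.2% held 3 equal values, 28.3% held a pair and 20.5% held none. Of the 7 members, 2 held 3 equal values (Ephb3 and Ephb6), 4 held a pair (Efnb1, Efnb3, Ephb1 and Ephb4) and Efnb2 held none. The cause of the equal values was not tested. The median SD was 0.06 over the members and 0 over all genes. Where the mean reached 100 it was 0.10, and for Efnb1, Efnb2 and Ephb4 it was 0.08.

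The 3 members with a mean of 100 or more had their lowest value in replicate 3, which Efnb1 shared with replicate 2. The shift of replicate 3 from replicate 1 was small for Efnb2 and Ephb4, at most 0.13 on the log2 scale. Genes of other cell types also varied between the same samples. Of 11 measured genes of smooth muscle, pericytes and mesangium, 8 were highest in replicate 3, with a median deviation of 0.30 from each gene's mean, and their summed signal ran from 1867 to 3742. Of these 11 genes, 2 were above 100 (Rgs5 and Notch3), 5 were below (Cnn1, Cspg4, Des, Pdgfra and Gata3) and 4 were neither (Acta2, Myh11, Tagln and Pdgfrb). Without replicate 1 or without replicate 2 the number above was 1, with 2 and 3 at an unadjusted limma p under 0.05. Notch3, a receptor of mural cells, had 6.90 in each sample. With the spread of other probesets in place of none it was neither, and Acta2, the smooth muscle actin gene, was above. Of 10 genes of the proximal tubule 9 were above 100, with a summed signal from 8052 in replicate 2 to 10300 in replicate 3, and Slc5a2 was neither. The number above was 5 without replicate 1 and 5 without replicate 3, with 9 and 8 at an unadjusted limma p under 0.05. The study inferred a minor contamination of its cortical endothelial cells, with a mainly proximal tubule profile. The part of these other cell types in the signals of the B-class genes was not tested.

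**Figure D3:**
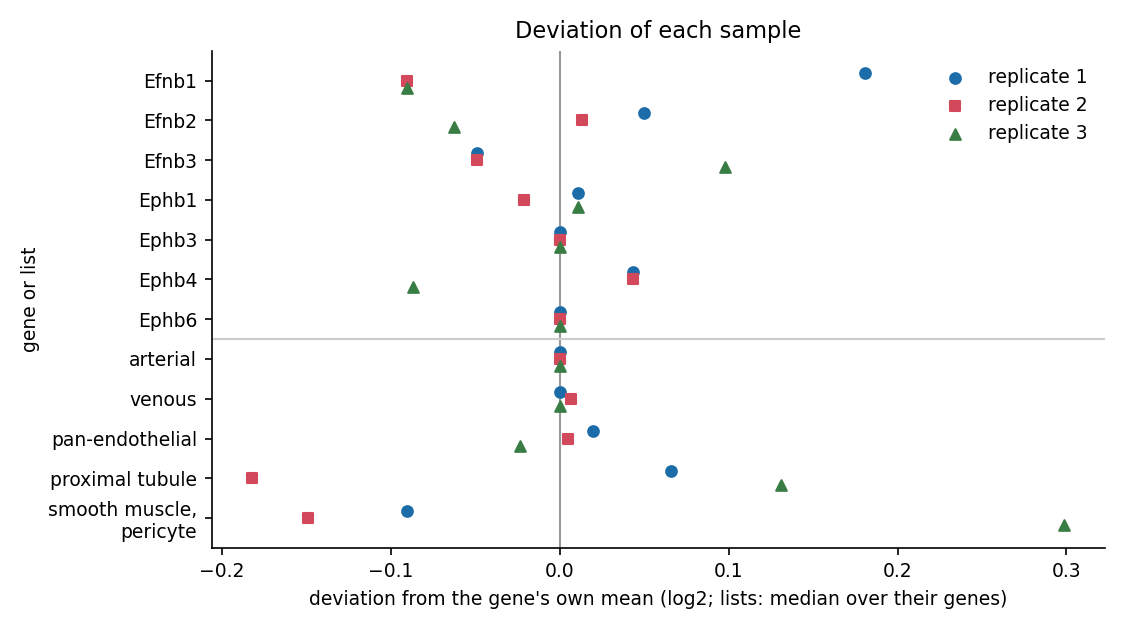
Deviation of each replicate (circle, square, triangle for 1, 2 and 3) from a gene's own mean on the log2 scale, for the 7 B-class genes and, under the grey line, as the median over the genes of 5 lists. The B-class genes stay within 0.2 of 0, while the smooth muscle and pericyte list stands at 0.30 in replicate 3 and the proximal tubule list at -0.18 in replicate 2.

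Of 6126 other genes whose mean reached 100, 203 had values that, minus their mean, lay within a Euclidean distance of 0.1 of those of Efnb1, the member with the largest SD in this range. The nearest were Kdm4c at 0.0044, Setd1b at 0.0054 and Tbcel at 0.0060. Like Efnb1, these 3 genes were highest in replicate 1 and held a pair of equal values in replicates 2 and 3. As they were picked by their closeness to this pattern, the likeness is no separate result.

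Genes of endothelium in general were present in these samples. All 13 genes of a pan-endothelial list were above 100, with a median log2 signal of 9.41. The median was 9.46 for the proximal tubule list and 8.41 for that of the thick ascending limb and distal tubule. Pecam1, an adhesion molecule of endothelial junctions, had 10.07 ± 0.02, Cdh5, the VE-cadherin gene, had 10.62 ± 0.00, Tek had 10.41 ± 0.16 and its relative Tie1 had 8.16 ± 0.09. Without replicate 1 the number of pan-endothelial genes above was 8, with 13 at an unadjusted limma p under 0.05. All 8 measured genes of leukocytes and red cells were below, with a summed signal from 229.3 to 231.0 and Ptprc, the CD45 gene, at 5.12 in each sample. Of these genes 7 held 3 equal values. With the spread of other probesets in place of none, 7 were below and Cd3e was neither. The globin genes had no probeset of their own. Of 5 measured podocyte genes 4 were below (Nphs1, Wt1, Synpo and Ptpro), and Podxl, which endothelium also uses, was above. All 5 held 3 equal values, and with the spread of other probesets in place of none Nphs1 and Synpo were neither, which left 2 below. Of 7 genes of the thick ascending limb and distal tubule, 5 were above (Umod, Slc12a1, Slc12a3, Calb1 and Pvalb) and Kcnj1 and Cldn16 were neither, and the number above by limma was 0 without replicate 1 and 0 without replicate 3, with 5 and 4 at an unadjusted p under 0.05. Of 8 genes of the connecting tubule and collecting duct 0 were above by limma (2 at an unadjusted p under 0.05), 4 were below (Scnn1g, Scnn1b, Slc4a1 and Slc26a4) and 4 were neither (Aqp2, Aqp3, Hsd11b2 and Atp6v1g3). The number below was 1 without replicate 1 and 1 without replicate 3, and without replicate 3 the number above was 1.

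Beside Efnb2 and Ephb4, genes of an arterial and of a venous list were above 100 in the sorted cells. Which cells these transcripts came from was not tested. Of 14 arterial genes 10 were above 100 and 2 were below (Hey2 and Unc5b). Dll4, the arterial Notch ligand, had a mean log2 of 7.23 ± 0.03 (limma adjusted p = 0.0015), and the Notch ligands Jag1 and Jag2 had 8.60 and 6.71 in each sample. Notch1 had 7.54 ± 0.09 and was above (limma adjusted p = 0.00505). Hey1, a target of Notch in arteries, had 7.21 ± 0.18 (adjusted p = 0.05002) and Bmx had 6.67 ± 0.54, and neither was called. With the spread of other probesets in place of none, Jag2 and Unc5b were neither and Hey1 was above, so that 10 were above and 1 was below. The number above was 6 without replicate 1 and 6 without replicate 3, with 11 at an unadjusted limma p under 0.05 in each case.

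Of 6 measured venous genes 3 were above 100 and 3 were below. Nr2f2, the COUP-TFII gene that sets venous identity, had a mean log2 of 7.36 ± 0.06 (limma adjusted p = 0.00434). Nrp2, a co-receptor of VEGF-C, had 7.08 ± 0.11, and Aplnr, the apelin receptor gene, had 8.17 ± 0.30. Those below were Flt4, the VEGF-C receptor gene, at 6.39, Ackr1, a chemokine receptor of venules, at 4.24, and Vwf at 6.46, each with 3 equal values. With the spread of other probesets of like mean in place of none, Ackr1 alone of these remained below. By limma 1 was above without replicate 1 and 0 were above without replicate 2, while 3 had an unadjusted p under 0.05 in each case.

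Of the 14 A-class genes, whose ephrins hang on a lipid anchor, 1 was above 100 and 12 were below. The gene above was Efna1, the ephrin-A1 gene induced by inflammatory cytokines in endothelium, at 8.44 in each sample. Efna5, a ligand that can also bind EphB2, was neither, with log2 signals of 6.64, 7.52 and 7.48, and it was called above without replicate 1. Epha4, the A-class receptor that also takes B-class ephrins, had 6.64 in each sample, just under the limit (limma adjusted p = 0.000817, from 3 equal values), and Epha2, the main partner of ephrin-A1 in vessels, had 6.01. Efna2 had 4.87, Efna3 3.97 and Efna4 5.12 in each sample. With the spread of other probesets in place of none, 9 genes were below, and Epha4 and Epha2 were not among them.

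**Figure D4:**
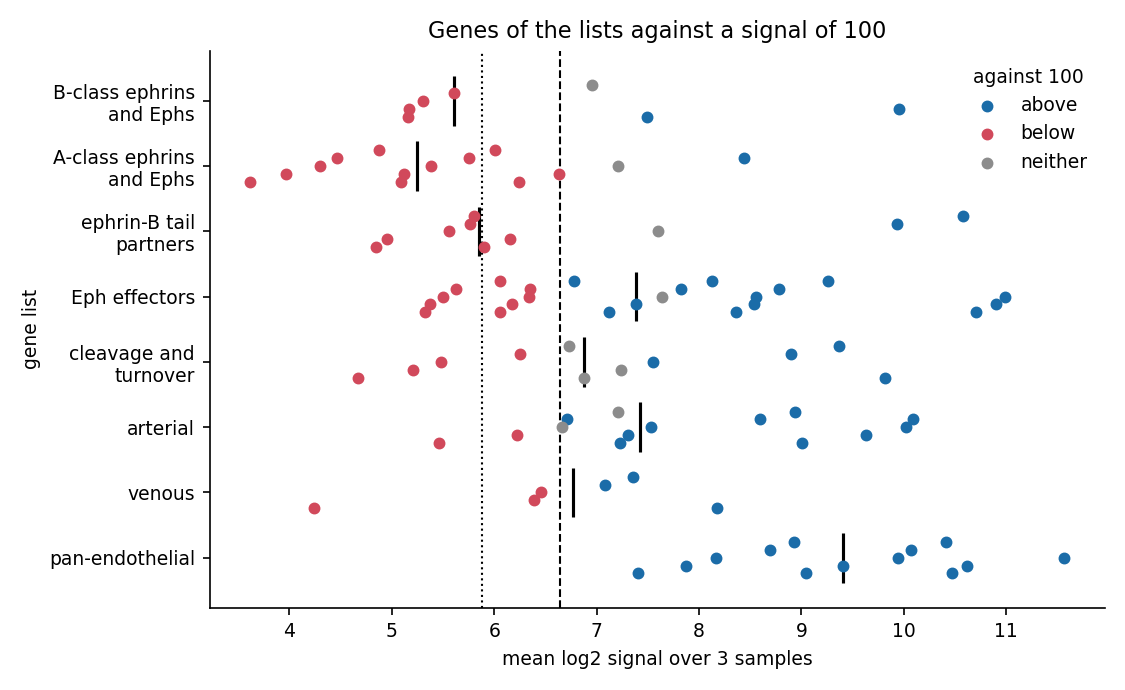
Mean log2 signal over the 3 samples for each measured gene of 8 lists, coloured by the call against a signal of 100 (dashed line). The short black bars are list medians and the dotted line is the median of all genes, 5.88. The A-class list has its median at 5.25 and the pan-endothelial list at 9.41.

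Of 10 genes whose proteins bind the tail of ephrin-B ligands, 2 were above 100 and 7 were below, with a median log2 signal of 5.85. Sdcbp, the gene of the PDZ protein syntenin, had 10.13, 10.57 and 11.03 in replicates 1, 2 and 3, a mean of 10.58 ± 0.45 (limma adjusted p = 0.0068). Dab2, an adaptor of endocytosis that acts with ephrin-B on VEGF receptors and that the proximal tubule also uses, had 9.93 ± 0.08 (adjusted p = 0.000309), while its other probeset was at 5.15 and below. Rgs3, which links ephrin-B to G protein signaling, was neither at 7.60 ± 0.43, and its other probeset, with 6.66 in each sample, was above (limma adjusted p = 0.000518, from 3 equal values). Nck2, the adaptor also called Grb4, had 5.56 ± 0.11, Grip1, a PDZ scaffold, had 4.95, and Pick1, another PDZ protein, had 5.80 ± 0.36, all below. With the spread of other probesets in place of none, 2 genes of this list were above and 5 below. The number above was 1 without any 1 of the replicates. At an unadjusted limma p under 0.05 it was 2, 2 and 3 without replicates 1, 2 and 3 in turn.

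Of 23 measured effectors of Eph receptors 13 were above 100, 9 were below and Ryk, at 7.64 ± 0.66, was neither. Their median log2 signal was 7.38. Rasa1, the p120RasGAP gene that EphB receptors use to dampen Ras, had log2 signals of 9.02, 9.73 and 9.02 (mean 9.26 ± 0.41; limma adjusted p = 0.0129). Nck1, an adaptor, had 8.12 in each sample and Kalrn, an exchange factor, had 7.12 in each. Itsn1, also the gene of an exchange factor, was below at 6.34, while Itsn2 was above at 8.54 ± 0.00. With the spread of other probesets in place of none, 10 were above and 4 below, and Kalrn and Itsn1 were neither.

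Among genes of cleavage and turnover, 4 of 11 measured were above 100, 4 were below (Rhbdl2, Psen2, Ptpro and Mmp9) and 3 were neither (Ncstn, Aph1a and Cblb). The other probeset of Aph1a, a subunit of gamma-secretase, was above (limma adjusted p = 0.036). Adam10, the protease that cuts ephrins at cell contacts, read 8.90 in every sample on the log2 scale. Psenen, a subunit of gamma-secretase, had 9.52, 10.30 and 9.62. Cbl, a ubiquitin ligase of receptor kinases, had 7.55 ± 0.06 (limma adjusted p = 0.00205). Acp1, a phosphatase that acts on Eph receptors, had 9.37 ± 0.04 at the highest of its 5 probesets, on which its call rests. Its lowest probeset had a mean of 6.72 and was neither, and the others were above by limma. The number above was 2 without replicate 3, with 4 at an unadjusted limma p under 0.05.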

How the data were processed

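RNA of 3 samples of GFP positive cortical endothelial cells was measured on arrays. For each sample the authors deposited 1 column of log2 signals, summarised per probeset and normalized between arrays. The study names RMA in GeneSpring GX and the submitters' notes name Affymetrix Expression Console. Neither the version of that program nor which arrays were normalized as one set is stated in the sources used here. The median log2 signal was 5.70, 5.70 and 5.66, and Pearson's r across probesets lay between 0.941 and 0.950. Precision is limited by the number of arrays.

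Of 35557 probesets, 21789 have 1 gene in the array annotation, 1621 several and 12147 none, and 21698 of the 21789 matched a RefSeq gene ID, which gave the symbol. A gene was taken at its probeset with the highest mean, whatever the call of its other probesets.

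All probesets were fitted with limma 3.58.1 in R 4.3.3 (intercept only, log2 signal minus log2 of 100, variance trend, one-sided tests, Benjamini-Hochberg over all probesets, threshold 0.05). The fit was tested on simulated data that held no equal values, so that test does not cover probesets with such values. On the measured values the fit had 2 residual and 0.297 prior degrees of freedom. Intervals are 95% and use the same fit. In the setting for equal values, such probesets took the mean variance of the others in 20 bins of mean signal. The p-values measure only the spread between these samples.

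The members and the 13 other gene lists were chosen with earlier results of these data known, from general knowledge. Named genes are all members, up to 4 genes of a list in the order written or all those behind a count of 5 or fewer, each A-class gene above 100, and the 3 genes nearest in pattern to the member with the largest SD. Genes outside this rule (Epha4, Epha2 and Itsn2) were added after their values were seen, and not every gene of the rule is reported. Protein sequences were not used here, and the planned identity between members was not computed.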

Additional observations from a re-analysis of the deposited data

How the results depend on the processing

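Alternatives were a limit of 50 or 200, every sample on one side of 100 with no test, columns brought to one median or one distribution (quantile normalization), no trend of the variance, equal values given the spread of others, adjustment over probesets of 1 gene, the dimmest probesets left out, the mean over all probesets of a gene, and each replicate left out. Efnb2 stayed above the limit, and Ephb1, Ephb3 and Ephb6 below it, under all 13. Of the 7 members, 2 were above, beside 3 (Efnb1 added) with a limit of 50, with quantile normalization and with no test, 1 with a limit of 200, and between 1 and 2 when a replicate was left out. The number was 2 under the other 6. Where 1 was above, with a limit of 200 or without replicate 2, it was Efnb2. Without replicate 1 the genes above were Efnb1 and Efnb2. With a limit of 200 Efnb1 lay -0.69 and Ephb4 -0.15 from it on the log2 scale. The cause was the higher limit itself. The number below was 3 with a limit of 50 and 6 with 200, and 4 under the other 11.

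Of 58 other genes of the pathway, 20 were above and 32 below. With a limit of 50 there were 39 above and 15 below, and with 200 there were 13 above. Where probesets with 3 equal values took the spread of others, 17 were above and 22 below. With the dimmest probesets left out, and so not called, 27 were below. The number above ran from 15 to 16 and the number below was 30 when a replicate was left out. The median SD of the members, 0.0574, was 0.0373 with columns brought to one median and ran from 0.0 to 0.0795 without 1 replicate. The cause of these changes was not tested. No paired analysis was possible because the samples form 1 group. The number of arrays and the equal values limit every call near the limit, such as those of Efnb1 and Ephb4.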
